A study of Mus musculus with 28 samples.

Results

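The genes Runx1, Ebf2, Hlx, Hmcn1, Maml3, Tmem132c and 9230105E05Rik were described across 28 bulk RNA samples of mouse cells in 11 groups. They were chosen from the measured values. Each of the 7, out of 28244 genes in the count table, was higher in all 5 groups of peripheral neural stem cells (pNSCs) than in brain neural stem cells (NSCs) of the same experiment. Higher meant an adjusted p below 0.05 and at least a doubling (a log2 difference of at least 1). The pNSC against brain NSC values of these genes are therefore a description, and no test of them is given.

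Runx1, Ebf2 and Hlx encode transcription factors. Runx1 is known for its part in the making of blood stem cells and in subsets of sensory neurons, Ebf2 for brown fat precursors and some developing neurons, and Hlx for the mesenchyme of visceral organs. Maml3 encodes a Mastermind-like coactivator, which joins the intracellular domain of Notch and the DNA-binding factor RBPJ at Notch target genes, and Notch signalling is known to hold brain NSCs in an undifferentiated state. Hmcn1 encodes hemicentin-1, a large extracellular matrix protein related to the fibulins, Tmem132c encodes a transmembrane protein, and 9230105E05Rik is annotated as an antisense non-coding RNA.

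The samples came from 3 experiments on C57BL/6-labelled mice, and the study's methods state that transgenic animals were bred with wild-type mice of CD1 or CD1 and C3H background. The Nes-GFP experiment, in which GFP marks cells that express the nestin reporter, had 2 replicates each of brain NSCs, pNSC lines from adult lung, pNSC lines from postnatal tail, lung cells and tail cells, in 10 samples. The Wnt1Cre-mTmG experiment had 3 replicates each of brain NSCs, pNSCs from postnatal tail, pNSCs from postnatal dorsal root ganglia (DRG) and neural crest stem cells (NCSCs) from adult wild-type DRG, in 12 samples. Wnt1-Cre turns cells of the neural crest and their progeny from Tomato+ to GFP+, and both pNSC groups of that experiment were Tomato+ and GFP- lines grown from unsorted cells. The Sox2-GFP experiment had 3 replicates each of brain NSCs and postnatal lung pNSCs and used the same 2 lung cell samples. Adult mice were about 4 to 6 weeks old and postnatal mice were 1 to 5 days old. The age behind each brain NSC group, and behind the lung and tail cell samples, is not given in the sources used here. All pNSC lines were expanded from manually picked single clusters in medium with EGF and bFGF. Nes-GFP and Sox2-GFP pNSC lines started from sorted GFP+ cells. The study calls the replicates biological and does not say whether they were separate lines, cultures or animals, so p-values measure the spread between these samples. It also states that pNSCs and their brain NSC controls mostly shared mice, but not which samples did.

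Libraries held 9808246 to 22637031 counts, and the brain NSCs and DRG pNSCs of the Wnt1Cre-mTmG experiment were the shallow groups, at 11431445 counts or fewer. Levels are counts-per-million values (cpm) after trimmed mean (TMM) scaling over all 28 samples. A list of 7 NSC markers summed to between 4521 and 6518 cpm in every brain NSC and pNSC sample, to 86.6 to 90.1 cpm in tail cells, to 293 to 317 cpm in lung cells and to 1443 to 1826 cpm in DRG NCSCs. The DRG NCSCs, whose label gives the cell type as NSC, held 4283 to 4397 cpm of 7 neural crest and Schwann markers, against 3.83 to 77.3 cpm in brain NSCs and pNSCs. Replicate 3 of the DRG NCSCs stood apart from the other DRG NCSC samples, with a spread of 17.1 and 21.4 times counting error against 1.09 to 2.90 for all other replicate pairs. Comparisons with DRG NCSCs are given with and without it.

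Across all genes the choice was a narrow one. Of 14069 genes tested in all 3 experiments, 13 (0.0924%) were higher and 34 (0.242%) were lower in all 5 pNSC groups. The other 6 genes higher in all 5 were Calca, Dusp4, Hoxa3, Hoxa6, Tmem173 and Itga9. All 7 genes described here passed the filter on low counts in all 3 experiments. In the smallest of its 5 log2 differences Tmem132c stood at 2.26, Hmcn1 at 1.91, Runx1 at 1.52, Maml3 and Ebf2 at 1.29, and 9230105E05Rik and Hlx at 1.03. The genes just outside the threshold were Gjc1 at 0.996, Cped1 at 0.95, Wif1 and Osr2 at 0.92, Tbx18 at 0.87 and AI506816 at 0.85. Leaving out 1 library moved the nearest members across the threshold. Hlx was lost without tail pNSC replicate 2 of the Nes-GFP experiment, and 9230105E05Rik was lost without its brain NSC replicate 1 or its lung pNSC replicate 2.

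The background in each of the 5 comparisons was a few percent of all genes. Genes called higher in pNSCs made up 4.31% in Nes-GFP tail pNSCs, 4.56% in Nes-GFP lung pNSCs, 9.16% in Wnt1Cre-mTmG tail pNSCs, 3.12% in DRG pNSCs and 5.76% in Sox2-GFP lung pNSCs. All 7 genes were called in each, which the choice fixed. No pNSC sample of any of the 7 overlapped the brain NSC samples of its experiment, which the choice favoured. Over all genes tested, the pNSC samples lay wholly above the brain NSC samples in 34.5% of genes for Nes-GFP tail, 29.8% for Nes-GFP lung, 37.7% for Wnt1Cre-mTmG tail, 31.0% for DRG and 33.9% for Sox2-GFP lung pNSCs.

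**Figure D1:**
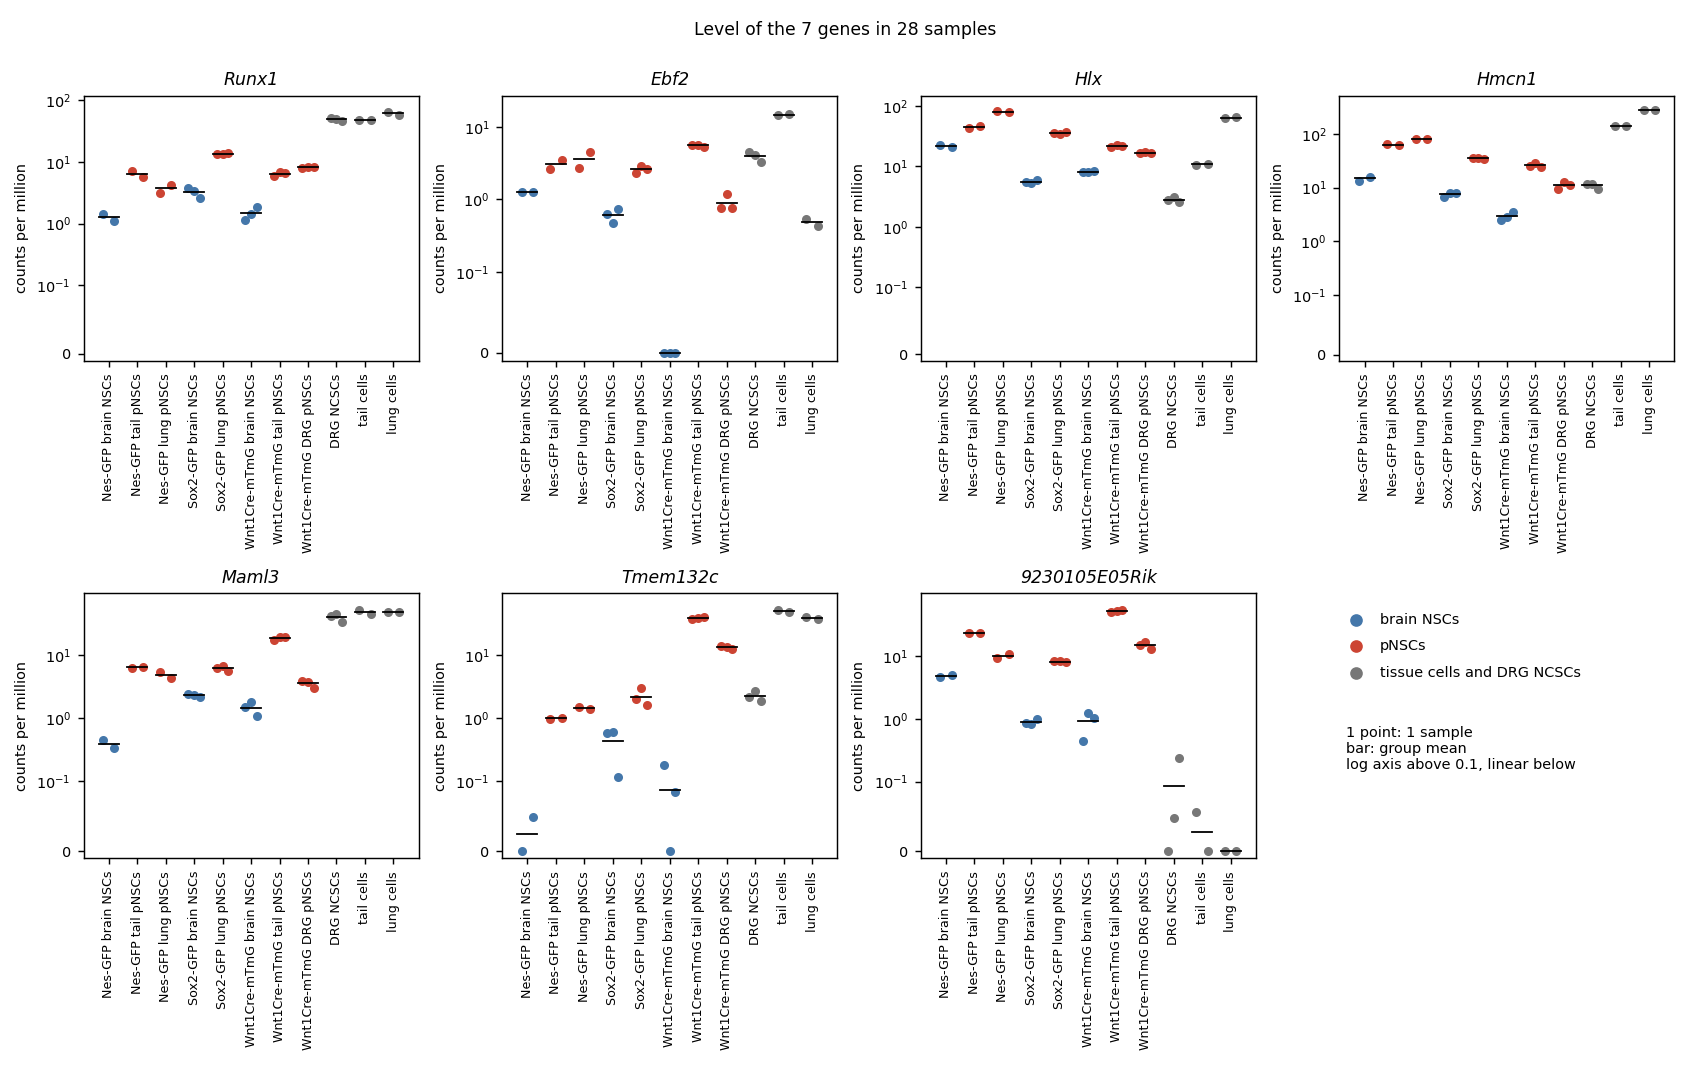
Level of each of the 7 genes in every sample, in TMM-scaled counts-per-million units on a symmetric log axis, with 1 point per sample and groups ordered by experiment. pNSC points lie above the brain NSC points of the same experiment for every gene, while lung cells, tail cells and DRG NCSCs lie above all pNSCs for Runx1 and near 0 for 9230105E05Rik.

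Runx1 spans 92601466 to 92826149 on the minus strand of chromosome 16 (GRCm38). The RUNX core motif, written TGTGGT or its reverse complement ACCACA on the other strand, was present in 16.8% of 32851 RefSeq promoters, each taken as 250 bases before to 50 bases after the start. One of the 2 annotated Runx1 promoters held it, at the 29th and 37th bases of the transcript. It is shown because Runx1 is the factor that binds this core, and the match is a description of the letters only. The 30 bases lie at chr16:92826025-92826054 (minus strand, RefSeq, GRCm38.p6), with the matches in capitals.
Runx1: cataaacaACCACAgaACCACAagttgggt

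In the Nes-GFP experiment Runx1 measured 7.20 and 5.68 cpm in tail pNSCs, 3.13 and 4.30 cpm in lung pNSCs and 1.42 and 1.12 cpm in brain NSCs. In the Wnt1Cre-mTmG experiment it measured 5.90, 6.94 and 6.59 cpm in tail pNSCs, 7.96, 8.27 and 8.37 cpm in DRG pNSCs and 1.16, 1.45 and 1.86 cpm in brain NSCs. In the Sox2-GFP experiment it measured 13.2, 13.2 and 13.7 cpm in lung pNSCs and 3.75, 3.37 and 2.64 cpm in brain NSCs. The ratios of group means to brain NSCs were even, between 2.92 in Nes-GFP lung pNSCs and 5.50 in DRG pNSCs. The levels stayed far below those of tail cells, lung cells and DRG NCSCs, at 46.9 and 48.3 cpm in tail cells, 65.3 and 58.5 cpm in lung cells and 51.9, 49.9 and 45.9 cpm in DRG NCSCs. Across experiments, Nes-GFP lung pNSCs overlapped the brain NSCs of the Sox2-GFP experiment. Blood cells are a main site of Runx1 expression. A list of 10 blood cell markers summed to 1.55 to 8.76 cpm in brain NSC and pNSC samples. Tyrobp had 0 counts in all of these groups, whereas group means were 1.03 to 3.55 cpm for Cd68, 0.204 to 4.21 cpm for Tal1 and 0.155 to 1.45 cpm for Gata2. The mean of Gata2 was above that of brain NSCs of the same experiment in every pNSC group. Those of Tal1 and Cd68 were not. Tal1 was lower in Nes-GFP tail pNSCs (1.20 against 2.86 cpm) and Cd68 in Wnt1Cre-mTmG tail pNSCs (1.03 against 2.18 cpm), and both were higher in the other pNSC groups. The list sum was 5.71 to 6.28 cpm in Nes-GFP tail pNSCs and 5.89 to 6.24 cpm in Nes-GFP brain NSCs. The list summed to 96.9 to 97.4 cpm in tail cells, 130 to 141 cpm in DRG NCSCs and 1096 to 1107 cpm in lung cells.

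Ebf2 spans 67233292 to 67430918 on the plus strand of chromosome 14, and 6.12% of its exon bases are shared with the opposite-strand gene Gm10860, which has no row of its own in the count table. It was a gene of low counts in all NSC and pNSC groups. Nes-GFP tail pNSCs had 2.63 and 3.55 cpm, lung pNSCs 2.75 and 4.58 cpm and brain NSCs 1.27 and 1.27 cpm. Wnt1Cre-mTmG tail pNSCs had 5.64, 5.70 and 5.33 cpm, DRG pNSCs 0.762, 1.18 and 0.769 cpm, and all 3 brain NSC samples had 0 counts. With a floor of 3 counts per library for these brain NSCs, the Ebf2 level was at least 20.5-fold higher in tail pNSCs and at least 3.34-fold higher in DRG pNSCs. Sox2-GFP lung pNSCs had 2.30, 2.88 and 2.62 cpm against 0.634, 0.476 and 0.746 cpm in brain NSCs. Tail cells were high at 14.4 and 14.9 cpm, DRG NCSCs had 4.49, 4.06 and 3.32 cpm and lung cells 0.543 and 0.436 cpm. DRG pNSCs lay below the brain NSCs of the Nes-GFP experiment, so a level that was high in its own experiment was low across experiments. A list of 6 brown preadipocyte markers summed to 9.85 to 20.2 cpm in brain NSC and pNSC samples and to 384 to 397 cpm in tail cells. Lung cells, with the least Ebf2 of the 3 reference groups, held 257 to 261 cpm of these markers and DRG NCSCs 97.4 to 105 cpm. Cebpa alone had a mean of 180 cpm in lung cells and Prdm16 one of 71.7 cpm in DRG NCSCs. The relation of this sum to Ebf2 was not tested.

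Hlx spans 184727140 to 184732619 on the minus strand of chromosome 1. The RBPJ core motif TGGGAA, or TTCCCA on the other strand, was present in 25.6% of the same promoters. Both Hlx and Maml3 held a single match, with its first base 227 bases before the RefSeq start in Hlx and 185 bases before it in Maml3. They are shown because Maml3 works with RBPJ, and the match is again of letters only. The stretches end before both the RefSeq and the GENCODE start, at chr1:184732620-184732743 for Hlx and chr3:52105077-52105256 for Maml3 (both minus strand, RefSeq, GRCm38.p6), with the match in capitals.
Hlx: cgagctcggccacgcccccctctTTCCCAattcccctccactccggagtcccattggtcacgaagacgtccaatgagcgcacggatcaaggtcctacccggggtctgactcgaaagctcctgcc
Maml3: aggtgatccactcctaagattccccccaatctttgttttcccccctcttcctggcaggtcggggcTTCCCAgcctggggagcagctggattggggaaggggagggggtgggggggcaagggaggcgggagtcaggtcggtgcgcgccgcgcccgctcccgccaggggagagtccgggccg

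Hlx measured 43.2 and 47.5 cpm in Nes-GFP tail pNSCs, 82.5 and 80.6 cpm in lung pNSCs and 22.3 and 21.3 cpm in brain NSCs. In the Wnt1Cre-mTmG experiment it measured 21.5, 22.5 and 22.2 cpm in tail pNSCs, 16.7, 17.3 and 16.4 cpm in DRG pNSCs and 8.04, 8.12 and 8.53 cpm in brain NSCs. In the Sox2-GFP experiment lung pNSCs had 35.5, 35.1 and 36.9 cpm and brain NSCs 5.53, 5.23 and 6.08 cpm. Hlx was higher in lung than in tail pNSCs of the Nes-GFP experiment. The ratio to brain NSCs ran from 2.04 in DRG pNSCs to 6.38 in Sox2-GFP lung pNSCs. Across experiments, DRG pNSCs lay below the brain NSCs of the Nes-GFP experiment, and Wnt1Cre-mTmG tail pNSCs overlapped those brain NSCs. Lung cells had 63.5 and 65.8 cpm, below the Nes-GFP and above the Sox2-GFP lung pNSCs, whereas tail cells had 10.6 and 11.2 cpm and DRG NCSCs 2.78, 3.07 and 2.62 cpm. Per kilobase of exon, Hlx was the highest of the 7 genes in every brain NSC group and in 4 of the 5 pNSC groups, with 35.8 cpm per kb in Nes-GFP lung pNSCs against 3.82 for Hmcn1 and 4.37 for 9230105E05Rik. In Wnt1Cre-mTmG tail pNSCs 9230105E05Rik stood above it, at 23.3 cpm per kb against 9.69 for Hlx.

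Maml3 spans 51685907 to 52105076 on the minus strand of chromosome 3. It measured 6.34 and 6.64 cpm in Nes-GFP tail pNSCs, 5.36 and 4.41 cpm in lung pNSCs and 0.456 and 0.341 cpm in brain NSCs. Wnt1Cre-mTmG tail pNSCs had 17.6, 19.7 and 19.8 cpm, DRG pNSCs 3.98, 3.84 and 2.98 cpm and brain NSCs 1.52, 1.84 and 1.10 cpm. The ratios of these 4 pNSC groups to brain NSCs split into 12.3 to 16.3 for the Nes-GFP lines and Wnt1Cre-mTmG tail pNSCs and 2.43 for DRG pNSCs. Sox2-GFP lung pNSCs had 6.27, 6.78 and 5.55 cpm against 2.48, 2.33 and 2.18 cpm in brain NSCs, a ratio of 2.66. Tail cells (53.3 and 46.0 cpm), lung cells (48.3 and 48.9 cpm) and DRG NCSCs (42.2, 45.7 and 33.9 cpm) all stood above every pNSC sample. The related coactivator Maml2 had group means of 127 to 204 cpm in brain NSCs and pNSCs, and Maml1 had 40.9 to 88.1 cpm.

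Hmcn1 spans 150562524 to 150993435 on the minus strand of chromosome 1, and 1.88% of its exon bases are shared with the opposite-strand gene Gm20631. Nes-GFP tail pNSCs had 65.3 and 61.3 cpm, lung pNSCs 81.1 and 80.8 cpm and brain NSCs 13.5 and 16.0 cpm. Wnt1Cre-mTmG tail pNSCs had 25.5, 29.2 and 24.1 cpm, DRG pNSCs 9.40, 12.6 and 11.3 cpm and brain NSCs 2.50, 2.80 and 3.46 cpm. Sox2-GFP lung pNSCs had 35.8, 36.3 and 34.0 cpm against 6.57, 7.83 and 7.97 cpm in brain NSCs. The ratios to brain NSCs lay between 3.79 and 8.99, and the Nes-GFP lines were high in level rather than in ratio. Lung cells had 282 and 284 cpm, tail cells 139 and 143 cpm and DRG NCSCs 11.7, 11.9 and 9.56 cpm. DRG NCSCs overlapped DRG pNSCs. Across experiments, DRG pNSCs lay below the brain NSCs of the Nes-GFP experiment. Its paralog Hmcn2 had a group mean of 1.40 cpm or less in every brain NSC and pNSC group.

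Tmem132c spans 127241808 to 127565793 on the plus strand of chromosome 5. The EBF core motif CCCNNGGG, which reads the same on both strands, was present in 13.7% of promoters and in that of Tmem132c, with its first base 50 bases before the start. It is shown because Ebf2 belongs to the family that binds this core. The stretch lies at chr5:127241576-127241807 (plus strand, RefSeq, GRCm38.p6). The promoters of Hmcn1 and the other Runx1 promoter held none of the 3 motifs.
Tmem132c: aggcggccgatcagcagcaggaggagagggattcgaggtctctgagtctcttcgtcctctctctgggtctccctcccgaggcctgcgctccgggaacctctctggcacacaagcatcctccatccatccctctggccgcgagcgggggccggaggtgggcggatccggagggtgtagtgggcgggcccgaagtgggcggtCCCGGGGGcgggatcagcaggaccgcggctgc

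Tmem132c was low in brain NSCs, at 0.605 cpm or less, and differed widely among pNSCs. Nes-GFP tail pNSCs had 0.971 and 1.01 cpm, lung pNSCs 1.52 and 1.40 cpm and brain NSCs 0 and 0.0487 cpm, the last from 1 count. Wnt1Cre-mTmG tail pNSCs had 36.9, 37.7 and 39.6 cpm, DRG pNSCs 13.6, 13.3 and 12.3 cpm, and brain NSCs 0.179, 0 and 0.0845 cpm from 3 counts in all. With so few counts in the denominators the ratios were 40.0 (95% counting interval 6.75 to 1622), 58.8 (10.1 to 2364), 423 (145 to 2052) and 146 (49.5 to 710), in the order of the 4 pNSC groups. These intervals cover counting error only. Sox2-GFP lung pNSCs had 1.96, 2.97 and 1.60 cpm against 0.576, 0.605 and 0.115 cpm in brain NSCs. Both GFP-reporter experiments thus held Tmem132c between 0.971 and 2.97 cpm in pNSCs, and the Wnt1Cre-mTmG experiment at 12.3 cpm or more. Tail cells had 51.8 and 47.6 cpm, lung cells 40.0 and 37.4 cpm and DRG NCSCs 2.13, 2.65 and 1.87 cpm. Lung cells and Wnt1Cre-mTmG tail pNSCs overlapped.

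9230105E05Rik spans 120389523 to 120392793 on the plus strand of chromosome 10 and lies wholly inside the gene Hmga2, which spans 120361275 to 120476469 on the minus strand and encodes a chromatin protein of stem and progenitor cells. They share 0 exon bases. Whether counting used strand is not given in the sources used here, so reads of 9230105E05Rik and unspliced reads of Hmga2 cannot be told apart. The nearest protein-coding genes that do not overlap it, Llph and Msrb3, lie 156941 and 388303 bases away.

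The RNA measured 22.9 and 23.4 cpm in Nes-GFP tail pNSCs, 9.11 and 10.6 cpm in lung pNSCs and 4.56 and 4.92 cpm in brain NSCs. Wnt1Cre-mTmG tail pNSCs had 50.5, 52.2 and 54.8 cpm, DRG pNSCs 14.8, 16.4 and 12.8 cpm and brain NSCs 0.447, 1.26 and 1.01 cpm. Sox2-GFP lung pNSCs had 8.18, 8.18 and 7.90 cpm against 0.864, 0.821 and 0.975 cpm in brain NSCs. The ratios to brain NSCs ran from 2.07 in Nes-GFP lung pNSCs to 57.9 in Wnt1Cre-mTmG tail pNSCs. Outside brain NSCs and pNSCs it was almost uncounted, with 1 count over both tail cell samples, 0 in lung cells and 5 counts over the 3 DRG NCSC samples.

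Hmga2 was itself higher in level in pNSCs, with group means of 27.7 to 65.8 cpm against 6.55 to 18.7 cpm in brain NSCs. The counts of 9230105E05Rik amounted to 79.6% of those of Hmga2 in Wnt1Cre-mTmG tail pNSCs, 47.2% in Nes-GFP tail pNSCs, 35.2% in Nes-GFP lung pNSCs, 31.3% in DRG pNSCs and 21.7% in Sox2-GFP lung pNSCs. In brain NSCs this ratio of the counts of both genes was 25.4%, 12.7% and 13.4% in the Nes-GFP, Wnt1Cre-mTmG and Sox2-GFP experiments. DRG NCSCs had more Hmga2 than any other group, at 106, 112 and 87.8 cpm, and 9230105E05Rik at 0.0811% of its counts, so the counts of the 2 genes did not keep a fixed ratio.

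**Figure D2:**
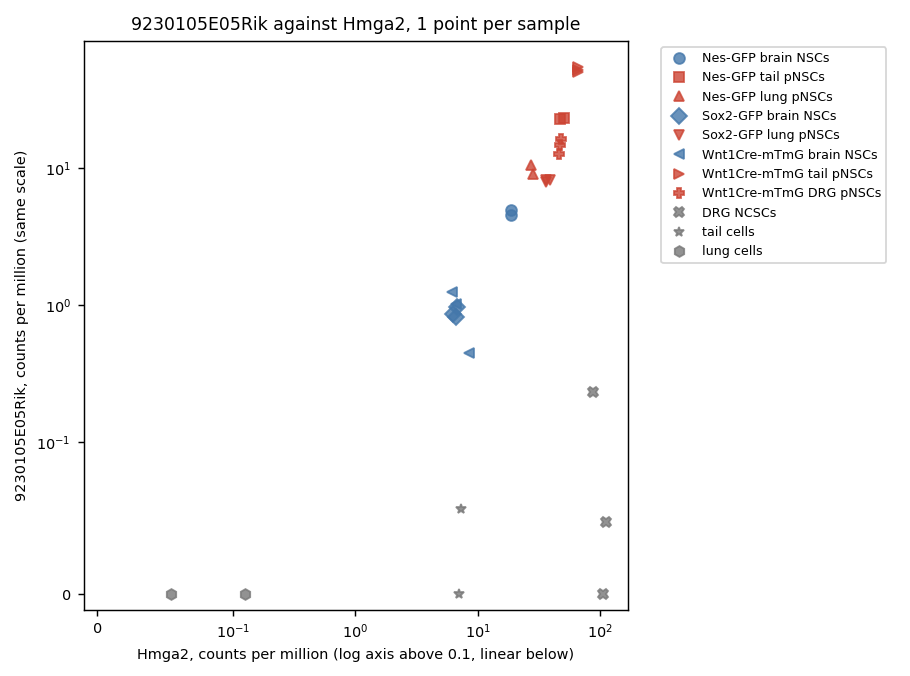
Level of 9230105E05Rik against the level of Hmga2, the gene it lies inside, with 1 point per sample and both in counts-per-million units. The DRG NCSC samples combine the most Hmga2 (87.8 to 112 cpm) with 0.233 cpm or less of 9230105E05Rik, and the Wnt1Cre-mTmG tail pNSCs lie highest for 9230105E05Rik.

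**Figure D3:**
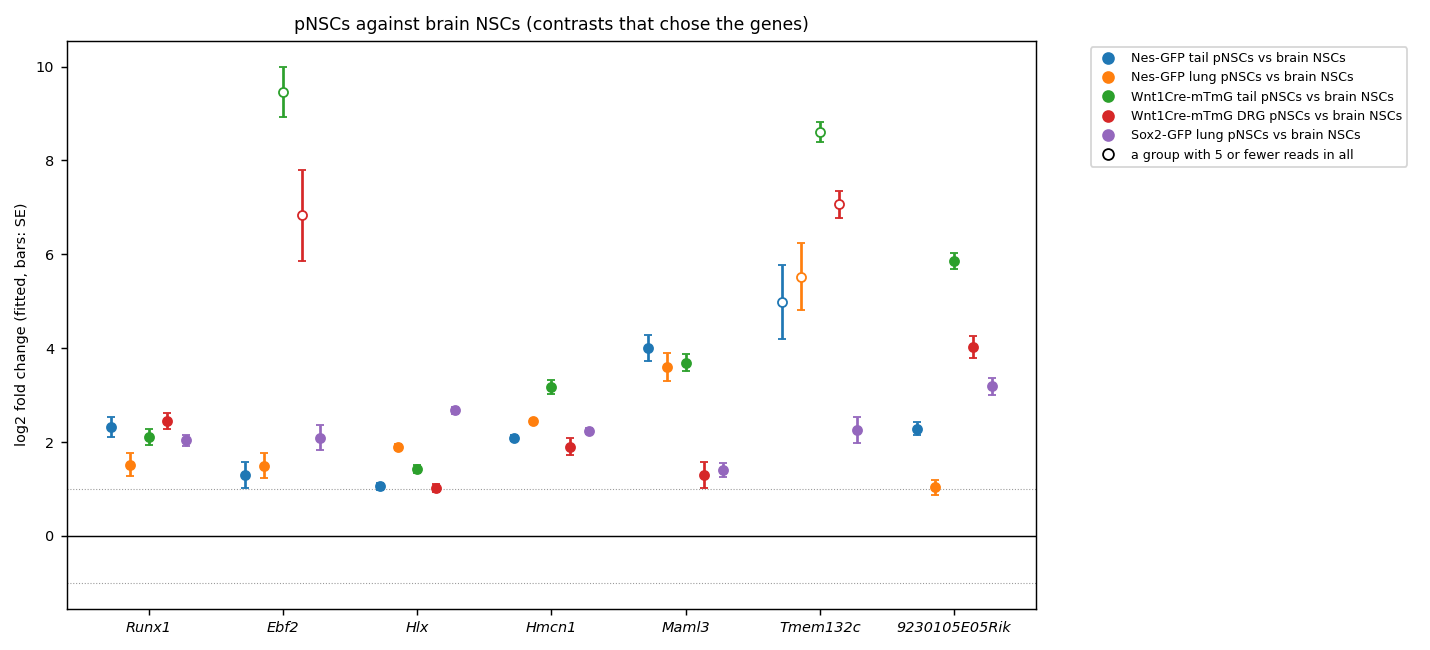
Log2 difference of each pNSC group from brain NSCs of the same experiment for the 7 genes, with bars for 1 standard error and open symbols where a group had 5 or fewer reads in all. These differences chose the genes, and they range from 1.03 for Hlx and 9230105E05Rik to the fitted values of Ebf2 and Tmem132c, whose brain NSC counts were 0 or nearly so.

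The pNSC groups were next compared with each other. The choice of genes did not use this contrast, but the samples on both sides of it entered the choice. These differences are therefore not wholly independent of it. Differences are log2 fold changes with standard errors from edgeR's quasi-likelihood test, 2-sided, with Benjamini-Hochberg adjustment over all genes of the experiment, and a gene is called at an adjusted p below 0.05 and a log2 difference of at least 1. In the Nes-GFP experiment 1 of the 7 genes was called between postnatal tail and adult lung pNSCs, against a background of 5.00% of genes higher and 7.86% lower in tail pNSCs. This was 9230105E05Rik, 1.25 ± 0.12 higher in tail pNSCs (adjusted p = 1.56e-24, n = 2 against 2). Runx1 differed by 0.81 ± 0.17, Maml3 by 0.41 ± 0.16, Hlx by -0.83 ± 0.06 and Hmcn1 by -0.35 ± 0.05. These 4 passed the p threshold and not the fold threshold. Ebf2 differed by -0.20 ± 0.22 (adjusted p = 0.478) and Tmem132c by -0.54 ± 0.33 (adjusted p = 0.159). Without lung pNSC replicate 2, whose Runx1 was the higher of the pair, Runx1 reached 1.04 and 2 genes were called. Organ and age changed together here and cannot be told apart.

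Between tail and DRG pNSCs of the Wnt1Cre-mTmG experiment, both postnatal, 5 of the 7 genes were higher in tail pNSCs and 0 were lower, against a background of 10.4% and 7.61% of genes. Ebf2 differed by 2.63 ± 0.22 (adjusted p = 3.75e-08), Maml3 by 2.40 ± 0.16 (adjusted p = 3.52e-10) and 9230105E05Rik by 1.84 ± 0.11 (adjusted p = 8.33e-11). Tmem132c differed by 1.54 ± 0.09 (adjusted p = 5.57e-11) and Hmcn1 by 1.26 ± 0.11 (adjusted p = 3.31e-08). Hlx and Runx1 lay within the fold threshold, at 0.40 ± 0.07 and -0.34 ± 0.11. All 3 tail samples lay above all 3 DRG samples for 6 genes, and below them for Runx1, and over all genes tested the samples lay apart in these directions in 37.5% and 36.0%. The tail pNSCs also carried more fibroblast marker counts, with 8 of 8 markers called higher and a sum of 476 to 488 cpm against 16.0 to 17.3 cpm in DRG pNSCs. Col1a1, Col1a2, Col3a1 and the other 5 markers were all above 0 in both groups. This sum is 0.646% of that in tail cells. Blood cell, brown preadipocyte, neural crest and Schwann, endothelial and epithelial markers summed to 3.42%, 4.01%, 1.78%, 0.362% and 0.0870% of tail cells. In cpm these sums were 2.49 to 4.00, 15.2 to 16.1, 15.7 to 18.5, 3.10 to 3.59 and 0.262 to 0.368. In the brain NSCs of this experiment they were 2.14 to 3.38, 16.6 to 18.2, 24.7 to 26.8, 2.77 to 3.09 and 1.06 to 1.18 cpm. Sensory neuron markers summed to 832% of tail cells in the tail pNSCs, with 561 to 575 cpm against 823 to 847 cpm in these brain NSCs. The level of Hmcn1 was 18.6%, of Ebf2 38.0%, of Maml3 38.4% and of Tmem132c 76.6% of that in tail cells. The part of tail cells in these levels was not tested. 9230105E05Rik had 1 count in tail cells. In bulk RNA, more cells of a type and more RNA per cell cannot be told apart.

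Lists of relatives of the 7 genes were counted in the same comparison, each with its own member included. In the list of Notch receptors, coactivators and targets 10 of 17 genes were higher and 0 lower in tail pNSCs, with a median of 1.04 against 0.01 over all genes tested. They included the receptor Notch3 (2.10 ± 0.04), the targets Heyl (3.34 ± 0.41) and Hey2 (1.86 ± 0.22) and the coactivator Maml1 (1.04 ± 0.06), while Maml2 stood at 0.58 ± 0.04. In the list of the Ebf family and its zinc finger partners 3 of 6 were higher and 0 lower (median 1.56), with Zfp423 at 2.84 ± 0.08 and Ebf3 at 2.42 ± 0.12. Of 8 hemicentins and fibulins 4 were higher and 0 lower (median 0.98), among them the elastic fibre protein Fbln5 (5.35 ± 0.17) and Fbln2 (2.51 ± 0.04). In the Runx list 3 of 7 were higher and 0 lower (median 0.37). The Tmem132 family split, with Tmem132c higher and Tmem132b (-1.66 ± 0.10) and Tmem132d (-3.63 ± 0.59) lower, and a median of -0.34 over its 5 genes. In the list of Hlx and mesenchymal transcription factors 3 of 6 tested genes were higher and 1 was lower (median 2.12). Without the members themselves, 9 of 16 Notch genes, 2 of 5 Ebf genes and partners, 3 of 7 hemicentins and fibulins, 3 of 6 Runx genes, 0 of 4 Tmem132 genes and 3 of 5 mesenchymal factors were higher, with medians of 1.02, 0.70, 0.71, 0.77, -0.999 and 3.85. Against brain NSCs, 8 of these 16 Notch genes were higher and 0 lower in Wnt1Cre-mTmG tail pNSCs. In Nes-GFP tail, Nes-GFP lung, DRG and Sox2-GFP lung pNSCs 0 were higher, and 1, 0, 1 and 3 were lower.

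**Figure D4:**
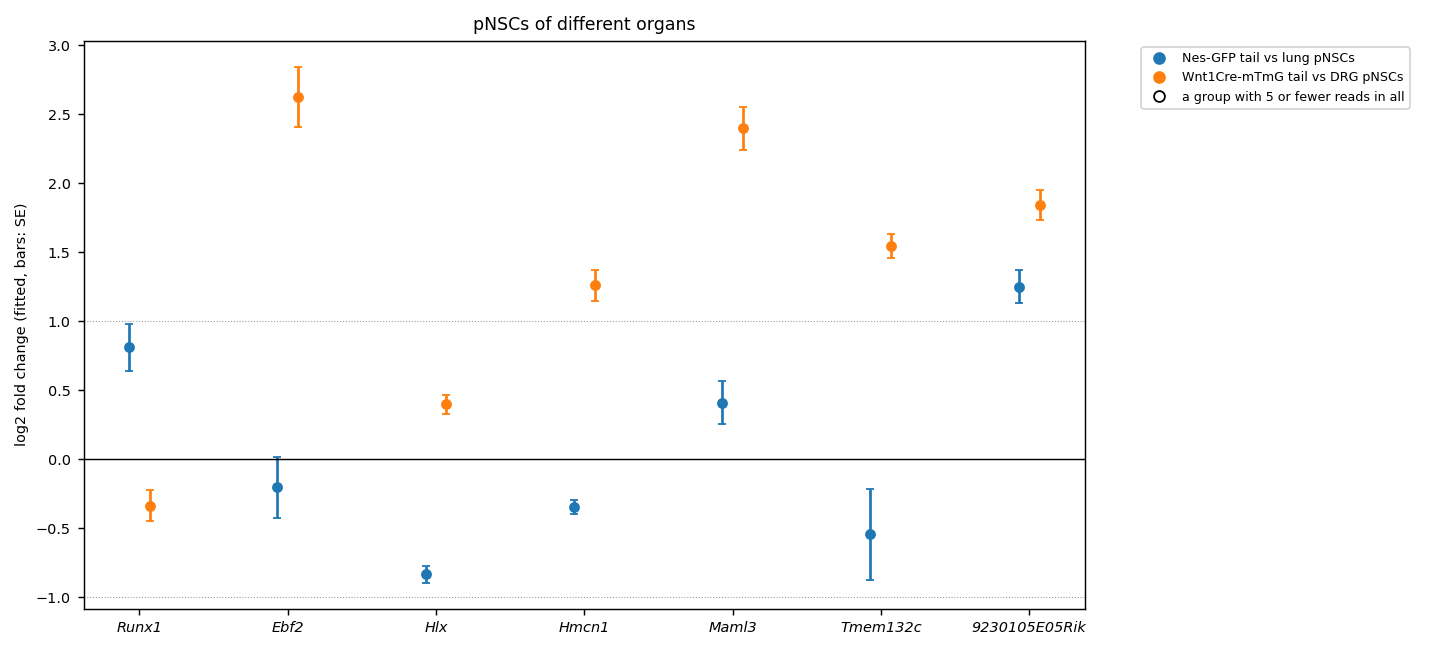
Log2 difference between pNSC groups for the 7 genes, tail minus lung pNSCs in the Nes-GFP experiment and tail minus DRG pNSCs in the Wnt1Cre-mTmG experiment, with bars for 1 standard error and lines at the fold threshold. Only 9230105E05Rik lies beyond 1 in both.

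The Nes-GFP tail, Nes-GFP lung and Sox2-GFP lung pNSCs were also set against cells of their organ of origin. Wnt1Cre-mTmG pNSCs were not tested against such cells. The lung and tail cells did not enter the choice of genes, but the pNSC samples did, so these differences are not independent of it. Between Nes-GFP tail pNSCs and tail cells all 7 genes were called, 2 higher and 5 lower in pNSCs, against a background of 14.1% and 32.6%. Hlx was 1.98 ± 0.09 higher (adjusted p = 6.73e-109). The ratio of 9230105E05Rik, resting on 1 count in tail cells, was 775 (95% counting interval 139 to 30646). The lower genes were Tmem132c at -5.72 ± 0.15, Maml3 at -3.02 ± 0.10, Runx1 at -2.98 ± 0.10, Ebf2 at -2.31 ± 0.18 and Hmcn1 at -1.24 ± 0.04, and no pNSC sample overlapped a tail cell sample, as in 89.6% of all genes. The median over all genes was -0.16. Fibroblast markers in these pNSCs summed to 0.00342% of their sum in tail cells, with Fap and Pdgfrb at 0 counts. In brain NSCs of this experiment that sum was 0.000631% of tail cells. Blood cell, brown preadipocyte, neural crest and Schwann, endothelial and epithelial markers in these pNSCs summed to 6.18%, 3.60%, 0.405%, 0.718% and 0.0699% of tail cells. In the brain NSCs these lists summed to 6.25%, 3.23%, 1.06%, 0.213% and 0.0394% of tail cells. Cebpa held 13.8 cpm of the 14.1 cpm of brown preadipocyte markers in these pNSCs. Sensory neuron markers, mainly Ntrk2, summed to 319% of tail cells in these pNSCs and to 1160% in the brain NSCs. In these pNSCs Hmcn1 stood at 44.9%, Ebf2 at 21.1%, Runx1 at 13.5%, Maml3 at 13.1% and Tmem132c at 2.00% of tail cells. The part of tail cells in these levels was not tested.

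Between Nes-GFP lung pNSCs and lung cells 6 of the 7 were called, 2 higher and 4 lower in pNSCs, against 20.2% and 34.9% of all genes. Ebf2 was 2.82 ± 0.34 higher (adjusted p = 3.60e-16) and 9230105E05Rik was at least 56.2-fold higher, with lung cells at 0 counts. Lower were Tmem132c (-4.76 ± 0.15), Runx1 (-4.11 ± 0.11), Maml3 (-3.34 ± 0.11) and Hmcn1 (-1.84 ± 0.04), and Hlx differed by 0.30 ± 0.06. Sox2-GFP lung pNSCs, which were postnatal, were set against the same lung cell samples of the Nes-GFP experiment. This called 2 genes higher and 4 lower, against 21.3% and 34.9%. Experiment changed together with cell type here, and age may have, so these cannot be told apart. Ebf2 was 2.36 ± 0.33 higher and 9230105E05Rik at least 46.2-fold higher. Tmem132c differed by -4.17 ± 0.11, Hmcn1 by -3.02 ± 0.03, Maml3 by -2.99 ± 0.08 and Runx1 by -2.23 ± 0.06, and Hlx differed by -0.87 ± 0.05. Fibroblast markers summed to 0.0350% and 0.0434% of their lung cell sum in the Nes-GFP and Sox2-GFP lines. Blood cell markers summed to 0.761% and 0.541%, brown preadipocyte markers to 6.71% and 7.39%, and neural crest and Schwann markers to 27.7% and 31.8%. Most of the brown preadipocyte sum in these lines was Cebpa, at 17.2 and 17.2 cpm. Most of their neural crest and Schwann sum was Tfap2a, at 16.0 and 18.2 cpm against 0.548 cpm in lung cells. Erbb3, the main gene of that sum in lung cells at 79.6 cpm, had 0.294 and 0.276 cpm. Endothelial markers summed to 0.0561% and 0.0669% and epithelial markers to 0.000204% and 0.00105%. In the Nes-GFP and Sox2-GFP lung pNSCs Runx1 stood at 6.00% and 21.6% and Hmcn1 at 28.6% and 12.5% of lung cells. Maml3 stood at 10.1% and 12.8% and Tmem132c at 3.76% and 5.63%. The part of lung cells in these levels was not tested.

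Relatives of the 7 genes did not all behave as they did, and the list counts again include the members. In the Runx list 0 of 7 genes were higher and 5 lower in tail pNSCs than in tail cells (median -3.35), and 1 was higher and 5 lower in Nes-GFP lung pNSCs than in lung cells (median -2.61). Runx2, the regulator of bone formation, stood at -3.35 ± 0.12 and -2.26 ± 0.16, Runx3 at -6.31 ± 0.23 and -2.72 ± 0.20, and the shared partner Cbfb was 1.74 ± 0.04 higher against lung cells. In the Ebf list 0 of 6 were higher and 4 lower against tail cells (median -1.20), and 5 were higher and 1 lower against lung cells (median 1.36). Ebf3 differed by -1.07 ± 0.09 and 5.54 ± 0.26, and Ebf1 by -1.32 ± 0.07 and -2.28 ± 0.10. The coactivator Maml2 was 2.53 ± 0.05 and 1.17 ± 0.04 higher in pNSCs, the opposite direction to Maml3. In the Notch list 4 of 17 were higher and 6 lower against tail cells (median -0.10), and 3 higher and 7 lower against lung cells (median -0.45). Of 8 hemicentins and fibulins 1 was higher and 5 lower (median -1.83), and 1 higher and 6 lower (median -2.43). Of 5 Tmem132 genes 0 were higher and 4 lower (median -3.72), and 3 higher and 2 lower (median 1.93), with Tmem132a 1.93 ± 0.06 higher against lung cells. In the list of Hlx and mesenchymal transcription factors 1 of 11 was higher and 9 were lower (median -7.14), and 2 higher and 7 lower (median -6.45).

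**Figure D5:**
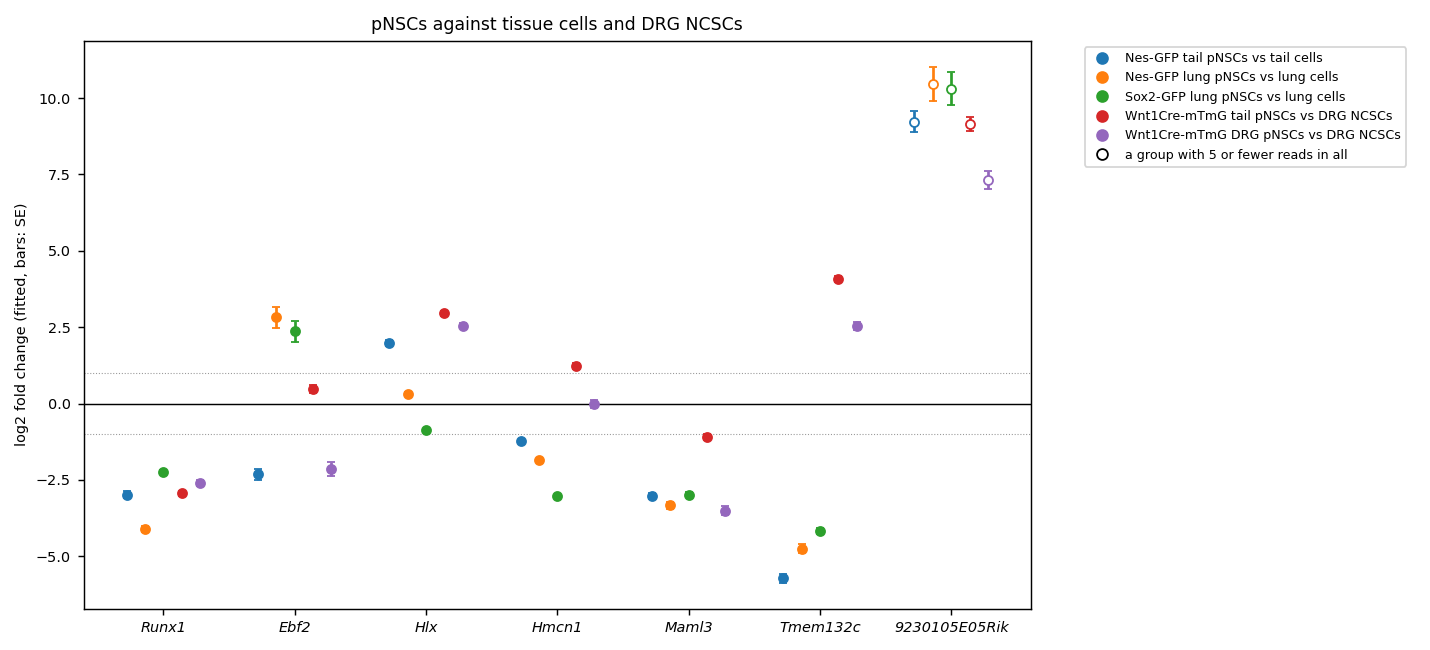
Log2 difference of Nes-GFP and Sox2-GFP pNSCs from cells of their organ of origin, and of Wnt1Cre-mTmG pNSCs from DRG NCSCs, for the 7 genes, with bars for 1 standard error and open symbols where a group had 5 or fewer reads in all. Runx1 and Maml3 lie below 0 in all of these comparisons and 9230105E05Rik lies above 0 in all of them.

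The pNSC minus tissue difference was then compared between tail and lung within the Nes-GFP experiment, as an interaction, called at an adjusted p below 0.05 alone. The test called 61.6% of all genes, and 5 of the 7, a share near that background. The difference was more positive for tail than for lung in Hlx (1.68 ± 0.11, adjusted p = 1.96e-52), Runx1 (1.13 ± 0.18, adjusted p = 1.71e-09) and Hmcn1 (0.60 ± 0.06, adjusted p = 1.59e-22). It was more negative in Ebf2 (-5.13 ± 0.37, adjusted p = 4.77e-42) and Tmem132c (-0.96 ± 0.34, adjusted p = 0.00774). Maml3 (0.32 ± 0.17, adjusted p = 0.106) and 9230105E05Rik (-1.24 ± 1.58, adjusted p = 0.540) did not pass. Tmem132c stood at -0.90 (adjusted p = 0.0561) without lung pNSC replicate 1, and Maml3 at 0.43 (adjusted p = 0.0392) without tail cell replicate 1. Tail cells themselves differed from lung cells in 2 of the 7 genes, against a background of 20.5% higher and 22.9% lower. Ebf2 was 4.93 ± 0.26 higher and Hlx fell by 2.52 ± 0.08 in tail cells on the log2 scale, and Hmcn1 stood at -0.95 ± 0.04.

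The Wnt1Cre-mTmG pNSCs were also set against DRG NCSCs. Besides their neural crest markers the DRG NCSCs held 7112 to 7204 cpm of the 8 fibroblast markers, against 476 to 488 cpm in tail pNSCs, 16.0 to 17.3 cpm in DRG pNSCs and 12.5 to 16.4 cpm in brain NSCs. All 8 were called in each of the 3 comparisons with DRG NCSCs, always higher in DRG NCSCs, and their part in the differences was not tested. Between tail pNSCs and DRG NCSCs 6 of the 7 genes were called, 4 higher and 2 lower in pNSCs, against 15.3% and 22.6% of genes. Tmem132c was 4.08 ± 0.11, Hlx 2.95 ± 0.09 and Hmcn1 1.24 ± 0.10 higher, and the ratio of 9230105E05Rik was 628 (269 to 1934). Runx1 differed by -2.94 ± 0.08 and Maml3 by -1.10 ± 0.09, both lower, and Ebf2 differed by 0.47 ± 0.14. Between DRG pNSCs and DRG NCSCs, from the same organ at different ages, 3 were higher and 3 lower, against 15.1% and 23.3%. Hlx was 2.55 ± 0.10 and Tmem132c 2.53 ± 0.13 higher, and the ratio of 9230105E05Rik was 176 (74.9 to 544). Maml3 stood at -3.50 ± 0.14, Runx1 at -2.60 ± 0.09 and Ebf2 at -2.16 ± 0.23. Hmcn1 differed by -0.02 ± 0.13 (adjusted p = 0.873), with overlapping samples.

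DRG NCSCs also differed from the brain NSCs of their experiment in all 7 genes, 5 higher and 2 lower, against 22.1% and 14.8%. The same brain NSC samples were the low side of the choice of genes, so a higher value in another group set against them is not independent of it. Runx1 was 5.04 ± 0.12 higher (adjusted p = 7.34e-17), Maml3 4.80 ± 0.17 higher (adjusted p = 2.13e-14) and Hmcn1 1.93 ± 0.17 higher (adjusted p = 8.08e-09). The ratio of Tmem132c was 24.9 (8.33 to 122) and Ebf2 was at least 14.6-fold higher. Hlx fell by 1.52 ± 0.11, and 9230105E05Rik was lower by a ratio of 10.8 (4.14 to 35.6). Without DRG NCSC replicate 3 the counts of genes called stayed at 6, 6 and 7 in the 3 comparisons. The 3 differences of 9230105E05Rik changed most, since 4 of its 5 NCSC counts came from that library, and its 3 fitted log2 values went from 9.16, 7.32 and -3.30 to 10.70, 8.86 and -4.85.

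The 7 profiles were not alike across the 11 groups. Over group means of log2(cpm + 1) the highest correlation between members was that of Runx1 with Maml3 (r = 0.93), followed by Maml3 with Tmem132c (r = 0.76) and Hlx with Hmcn1 (r = 0.68), and the lowest was that of Runx1 with 9230105E05Rik (r = -0.45). The 11 points share experiments, so the values describe these groups only. Of 14472 other genes with a mean of at least 1 cpm, those most like each member were Ccdc9 and Tgfbr3 for Runx1 (r = 0.96 and 0.96), Osr2 and Pip5k1a for Ebf2 (0.92 and 0.88), Sp2 and Tanc1 for Hlx (0.92 and 0.92) and Bcor and Sertad2 for Maml3 (0.95 and 0.95). For Hmcn1 they were Espn and Baz2a (0.96 and 0.95), for Tmem132c Calml4 and Hoxb2 (0.93 and 0.90), and for 9230105E05Rik Nrf1 and Camkmt (0.97 and 0.95). Of these, Osr2 is one of the genes just outside the threshold. The mean of the 7 standardised profiles was most like that of Fbln1, Sgf29, Dus3l, Foxj3 and Rasl11b, at r = 0.84 to 0.86. The lists depend on the measure of likeness, since 5 of the 19 genes also ranked there by Spearman's rho and 14 of 19 with 0.1 cpm added in place of 1.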

How the data were processed

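Bulk polyA-selected RNA was sequenced single-end on a NextSeq500. The authors deposited raw counts per gene for 28 samples. Per the labels' processing notes the tools were HISAT2, Cufflinks and HTSeq with GRCm38, while strand setting, counting mode and annotation release are not given in the sources used here. Groups and replicate numbers came from the sample labels. The members and the gene lists were chosen with earlier results of these data known.

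Counts were tested with edgeR 4.0.16 (R 4.3.3), by quasi-likelihood with TMM scaling, once per experiment with all of its groups in the fit. Genes passed filterByExpr (minimum count 10, minimum total 15), which left 16948, 14448 and 16234 genes in the Nes-GFP, Wnt1Cre-mTmG and Sox2-GFP experiments. P-values were adjusted by the Benjamini-Hochberg method over these genes. Standard errors were the log2 fold change divided by the square root of the test statistic. Fitted folds against groups at 0 counts depend on the prior count. For the 7 genes a floor of 3 counts per library therefore gave lower bounds, and groups with 1 to 10 counts gave ratios with exact 95% counting intervals. Genes of the lists have fitted values only, also where a group was low. Examples are Tmem132d (mean 0.0766 cpm in Wnt1Cre-mTmG tail pNSCs), Heyl (0.310 cpm in DRG pNSCs) and Ebf3 (0.280 cpm in lung cells). The scripts were tested on simulated data. The text names all 7 members, genes of fixed lists past the test (at most 4 a list, with its defining genes), all other genes higher in all 5 comparisons if at most 20, the 2 most alike genes per member and the 5 most like their mean, and the nearest protein-coding neighbours of the RNA gene. Gm10860 and Gm20631, Hmga2 and the genes just outside the threshold were named in addition. For genes lower in all 5 comparisons only the count is given. Positions and exon lengths are from GENCODE on GRCm38, and promoters from RefSeq (GRCm38.p6) covered 5 of the 7 members. Alternatives were DESeq2 1.42.0, upper-quartile scaling, no filter, a minimum count of 20, no fold limit, fits of only the groups compared, a replicate block, and leaving out each library.

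Same-numbered replicates did not deviate together (correlations of -0.02 to 0.05), and the sources tie no numbers to a shared mouse, so the numbers were not treated as pairs.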

Additional observations from a re-analysis of the deposited data

Results flagged for a closer look

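The interaction test called 61.6% of all genes, and 5 of the 7 genes (4 to 6 when each library was left out in turn) are near that background. In these 5 the difference between pNSCs and cells of their organ was not the same in tail and lung within the Nes-GFP experiment. The tail minus lung value was 1.13 for Runx1, -5.13 for Ebf2, 1.68 for Hlx, 0.60 for Hmcn1 and -0.96 for Tmem132c on the log2 scale. Without lung pNSC replicate 1 Tmem132c no longer passed (adjusted p = 0.0561). For Ebf2, pNSCs lay below tail cells (3.09 against 14.6 cpm) and above lung cells (3.66 against 0.49 cpm), so the direction itself turned. The Hlx difference ran from 10.9 cpm in tail cells and 64.6 cpm in lung cells to 45.4 and 81.6 cpm in the pNSCs of these organs. The tail lines were postnatal and the lung lines adult, and organ and age cannot be told apart. Groups held 2 or 3 samples, so single values were not screened for outliers within a group.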

How the results depend on the processing

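With DESeq2, upper-quartile scaling, no filter, a minimum count of 20 and fits of only the groups compared, the number of the 7 genes called was the same in all 10 comparisons, with 2 exceptions. By DESeq2 Hmcn1 (-1.004) was called too between tail and lung cells, which made 3 in place of 2, and in the fit of DRG NCSCs and brain NSCs alone 9230105E05Rik did not pass the filter on low counts, which left 6. The interaction was not refitted on fewer groups. Without the fold limit 5 of the 7 genes in place of 1 were called between Nes-GFP tail and lung pNSCs, 5 in place of 2 between tail and lung cells and 7 in place of 5 between Wnt1Cre-mTmG tail and DRG pNSCs. In both lung pNSC comparisons with lung cells and between tail pNSCs and DRG NCSCs it was 7 in place of 6. Over all genes that limit moved the calls from 2180 to 9036 and from 7356 to 13910 in those comparisons, from 2596 to 9417 between Wnt1Cre-mTmG tail and DRG pNSCs, from 7916 to 14042 against tail cells, from 9327 to 14582 and from 9136 to 14736 for Nes-GFP and Sox2-GFP lung pNSCs against lung cells, from 5472 to 12076 and from 5540 to 11903 for tail and DRG pNSCs against DRG NCSCs, and from 5336 to 11804 for DRG NCSCs against brain NSCs. Leaving out each library gave 1 to 2 genes between Nes-GFP tail and lung pNSCs, 4 to 6 in the interaction and 12 to 15 genes higher in all 5 comparisons, and the other 8 counts did not move. The values that changed sign were all uncalled. Under upper-quartile scaling Hmcn1 stood at 0.0031 between DRG pNSCs and DRG NCSCs. When a library was left out, it ranged from -0.118 to 0.094 there, Ebf2 from -0.55 to 0.19 between Nes-GFP tail and lung pNSCs, Maml3 from -0.014 to 0.19 and 9230105E05Rik from 0 to 3.30 between tail and lung cells, and 9230105E05Rik from -2.05 to 1.25 in the interaction. The list of most alike genes kept 5 of 19 by Spearman's rho and 14 with 0.1 cpm added. The cause of these changes was not tested. TMM within each experiment moved 11 of 77 group levels by more than 1 SD.

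With the replicate number as a block the calls among the 7 genes were the same, at 1, 5, 7, 6, 6, 6, 6, 7, 2 and 5 in the 10 comparisons, and 13 genes were higher in all 5. The sources do not say which samples came from the same mouse.

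Low counts leave only bounds or wide counting intervals for Ebf2 against Wnt1Cre-mTmG brain NSCs, for Tmem132c against Nes-GFP and Wnt1Cre-mTmG brain NSCs and for 9230105E05Rik against tail cells, lung cells and DRG NCSCs. Groups of 2 or 3 samples and the unstated strand limit all values.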
